A study of Mus musculus with 9 samples.

Results

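Cholesterol and fatty acid synthesis was followed in RNA sequencing of mouse bone marrow-derived macrophages (BMDMs), the cells from which osteoclasts, the cells that resorb bone, are grown in culture. The members were 32 genes of the 28379 in the gene table, chosen by gene name from the enzymes and regulators of both pathways. All 32 had enough reads to be tested, among 17002 genes that did. The marrow came from C57BL/6J mice aged 10 weeks, and every culture received macrophage colony-stimulating factor (M-CSF, 20 ng/ml), which keeps macrophages alive. Cells were kept for 48 h with PBS (PBS group) or with RANKL (100 ng/ml, RANKL group), the cytokine that drives osteoclast formation. The RANKL + Vit D + K group received the same RANKL with vitamins D (1000 nM) and K (20 μM per the labels) for the same time. Each group had 3 libraries, numbered as replicates 1 to 3. The vitamins were not sequenced singly or without RANKL, so the share of each vitamin cannot be told apart. The p-values measure the spread between these libraries, which may be technical, since nothing states that replicates came from separate mice or cultures.

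Cholesterol is built from acetyl-CoA through mevalonate, squalene and lanosterol, and fatty acids are built from the same acetyl-CoA by carboxylation, chain growth, elongation and desaturation. Many genes of both pathways are under the control of SREBP transcription factors, encoded by Srebf1 and Srebf2. SCAP carries SREBP from the endoplasmic reticulum to the Golgi apparatus for cleavage, and INSIG proteins hold SCAP back when sterols are plentiful. One late intermediate, 7-dehydrocholesterol, is also the precursor of vitamin D3 in skin, and the enzyme DHCR7 turns it into cholesterol. Osteoclasts depend on the mevalonate pathway: farnesyl diphosphate synthase, encoded by Fdps, is the target of the nitrogen-containing bisphosphonates used against bone loss.

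Promoter windows of 250 bases before the transcription start were taken from RefSeq (GRCm38.p6) for the 25 of 32 members that had an entry, and 4 of them are shown to place the letters that SREBP and its partner NF-Y are known to bind. Capitals mark the sterol regulatory element searched as TCACNCCAC and the CCAAT box searched as CCAAT, each on both strands, so that a CCAAT box on the other strand reads ATTGG. Hmgcs1 is shown as the member with a match to the sterol regulatory element as searched. Ebp and Fasn are shown as members that fell with the vitamins, and Insig1 as a member whose mean was higher with them. The windows are chr13:119690101-119690350 on the plus strand for Hmgcs1, chrX:8193513-8193762 on the minus strand for Ebp, chr11:120824548-120824797 on the minus strand for Fasn and chr5:28071162-28071411 on the plus strand for Insig1. In Fasn, 2 of the 3 matches lie within a single run of 8 capitals, where they overlap on opposite strands.
Hmgcs1: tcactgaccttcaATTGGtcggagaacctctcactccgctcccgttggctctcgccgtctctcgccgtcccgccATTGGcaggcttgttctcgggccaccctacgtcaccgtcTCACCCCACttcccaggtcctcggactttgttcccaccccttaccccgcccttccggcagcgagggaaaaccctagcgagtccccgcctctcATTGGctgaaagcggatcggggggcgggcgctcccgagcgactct
Ebp: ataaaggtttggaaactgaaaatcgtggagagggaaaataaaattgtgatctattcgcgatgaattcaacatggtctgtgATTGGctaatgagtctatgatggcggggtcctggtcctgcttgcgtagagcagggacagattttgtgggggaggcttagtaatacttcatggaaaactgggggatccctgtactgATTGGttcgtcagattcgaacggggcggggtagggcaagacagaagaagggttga
Fasn: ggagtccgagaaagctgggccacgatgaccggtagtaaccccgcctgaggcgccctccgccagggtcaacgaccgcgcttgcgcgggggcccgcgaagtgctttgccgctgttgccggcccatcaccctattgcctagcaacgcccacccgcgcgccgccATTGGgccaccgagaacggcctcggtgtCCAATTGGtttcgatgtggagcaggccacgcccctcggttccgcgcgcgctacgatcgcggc
Insig1: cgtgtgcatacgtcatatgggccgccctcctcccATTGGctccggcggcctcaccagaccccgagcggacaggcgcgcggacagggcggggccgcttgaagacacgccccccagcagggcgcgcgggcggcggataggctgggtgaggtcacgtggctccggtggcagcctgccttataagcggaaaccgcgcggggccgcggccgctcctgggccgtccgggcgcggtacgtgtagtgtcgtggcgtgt

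The CCAAT box was in the window of 19 of the 25 member genes (76%), against 37.49% of the 27025 genes with a RefSeq promoter. The GC box, searched as GGGCGG on both strands, was in 21 (84%), against 35.36% of all genes. The E-box, searched as CACGTG, was in 5 (20%), against 6.86%, and the sterol regulatory element in 1 (4%), against 1.225%. Of the 7 members with a window that fell with the vitamins, 5 held a CCAAT box and 4 a GC box, and of the 18 that were not called, 14 and 17 did. A match is a description of the letters in these windows, and it was not used to select any member.

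Depth was nearly equal, with 65915112 to 68229647 counts per library, and the members held 0.131% to 0.173% of the counts in PBS, 0.119% to 0.179% in RANKL and 0.0826% to 0.118% in RANKL + Vit D + K libraries. A floor of 3 counts was at most 4.55e-06% of a library, a limit of counting error only. The 7 macrophage markers were all present, with a summed FPKM (read fragments counted per unit of transcript length and of depth) of 26353 to 30528 in PBS, 16656 to 24227 in RANKL and 4525 to 11546 in RANKL + Vit D + K, most of it from Lyz2, which ranged from 3189 to 10168 in the last group. With the vitamins against RANKL, 4 of the 7 fell (Lyz2, Csf1r, Adgre1 and Fcgr1), Cd68 rose (0.53, adjusted p = 0.0143), and Itgam and Mrc1 were not called (-0.33 and -0.47). The 9 osteoclast markers summed to 22.9 to 30.4, to 487 to 1018 and to 58.2 to 93.1 in the same order. With the vitamins against RANKL, all of them fell except Atp6v0d2 (-0.23, adjusted p = 0.701 in edgeR). Against PBS, Ctsk, Mmp9, Dcstamp and Atp6v0d2 were higher with the vitamins, Nfatc1 was lower and the other osteoclast markers were not called. In bulk RNA, fewer cells of a type and less RNA per cell cannot be told apart. Replicate 2 stood apart in both groups with RANKL, and held the highest osteoclast sum in each of them. Its macrophage sum was the lowest of the RANKL group and the highest of the RANKL + Vit D + K group. Replicate 2 also had the highest FPKM of its group for 28 of 32 members in RANKL and for 26 of 32 in RANKL + Vit D + K. This was so for 51.59% and 57.52% of 11195 expressed genes. PBS replicate 1 was highest in its group for 23 of 32 members, against 29.21% of those genes. These libraries were kept, and counts of calls are given with and without them.

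**Figure D1:**
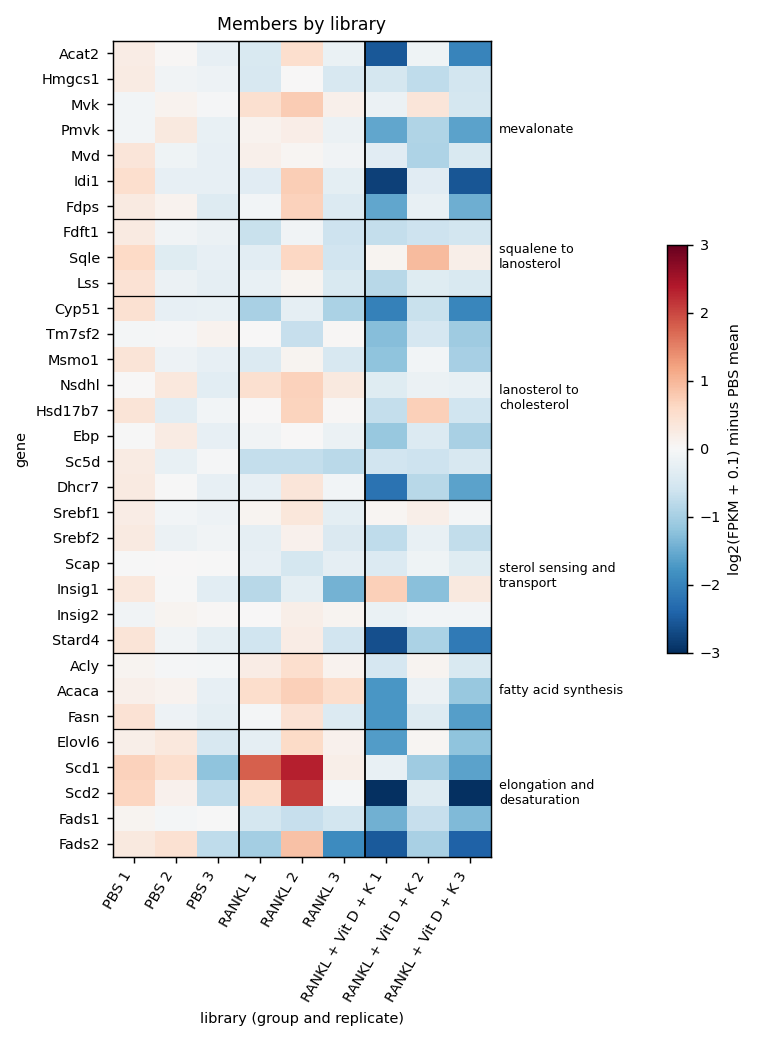
Heat map of the 32 members (rows, by step of the pathway) in the 9 libraries (columns), as log2(FPKM + 0.1) minus the mean of the 3 PBS libraries, with the colour scale clipped at plus and minus 3. The median over the rows was -0.98, -0.38 and -0.99 in RANKL + Vit D + K replicates 1 to 3.

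Vitamins D and K together were compared with RANKL alone to ask how they altered the cells under osteoclast-forming conditions. Of the 32 members, 10 fell and 0 rose (edgeR's quasi-likelihood test, adjusted p under 0.05 by the Benjamini-Hochberg method over all 17002 genes). The 10 were Pmvk, Nsdhl, Ebp, Dhcr7, Stard4, Acly, Acaca, Fasn, Scd1 and Scd2. They made up 31.25% of the members, where 17.2% of all genes tested fell and 16.4% rose, 33.7% in all. The median log2 fold change was -0.51 over the members and -0.04 over all genes, and it was negative for 27 of 32 members. At an unadjusted p under 0.05 there were 14 lower and 2 higher members, where 23.6% and 21.1% of all genes were so. DESeq2 called 1 member higher, Insig1, and 19.0% of all genes higher. Limma on log2(FPKM + 0.1) called 0 members higher and 12.8% of all genes.

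By step, all 3 genes of fatty acid synthesis fell, as did 2 of 5 genes of elongation and desaturation, 3 of 8 genes between lanosterol and cholesterol, 1 of 7 genes of the mevalonate steps, 1 of 6 genes of sterol sensing and transport and 0 of 3 genes between squalene and lanosterol. Median log2 fold changes ran from -1.58 for elongation and desaturation and -1.06 for fatty acid synthesis to -0.99 for mevalonate, -0.61 for lanosterol to cholesterol, -0.04 for squalene to lanosterol and 0.04 for sensing and transport. The steps were not tested against each other. FPKM did not overlap between the groups for 13 members that were lower and 1 that was higher, Sc5d, while 29.2% and 17% of all genes did so.

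The count of calls moved with single libraries. Without RANKL + Vit D + K replicate 2, 19 members were lower and 2 higher, the latter Sc5d and Insig1. Without RANKL + Vit D + K replicate 1 or RANKL replicate 1, 4 members were lower, and without RANKL replicate 2 there were 5. Without RANKL + Vit D + K replicate 3, 3 were lower. The range was 7 to 8 without RANKL replicate 3 or a PBS library. With replicate 2 left out of both groups, 16 were lower and 1 higher. The calls over all genes moved with the same libraries. The share of all genes that fell was 25.2% without RANKL + Vit D + K replicate 2 and 27.3% without both replicates 2, against 17.2% with all libraries. It was 9.37% without RANKL + Vit D + K replicate 3, 11% without its replicate 1, 9.16% without RANKL replicate 1, 14.7% without RANKL replicate 2, and 9.90% to 14.1% without RANKL replicate 3 or a PBS library. The share that rose was 21.2% without RANKL + Vit D + K replicate 2 and 21.8% without both replicates 2, against 16.4% with all libraries. Pmvk, Dhcr7 and Acaca were called in all 9 fits that left out 1 library, with adjusted p of at most 0.0186, 0.0411 and 0.0451. Stard4 lost its call in 3 of the 9, Nsdhl, Ebp and Scd1 in 4, Scd2 in 6, and Acly and Fasn in 8.

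**Figure D2:**
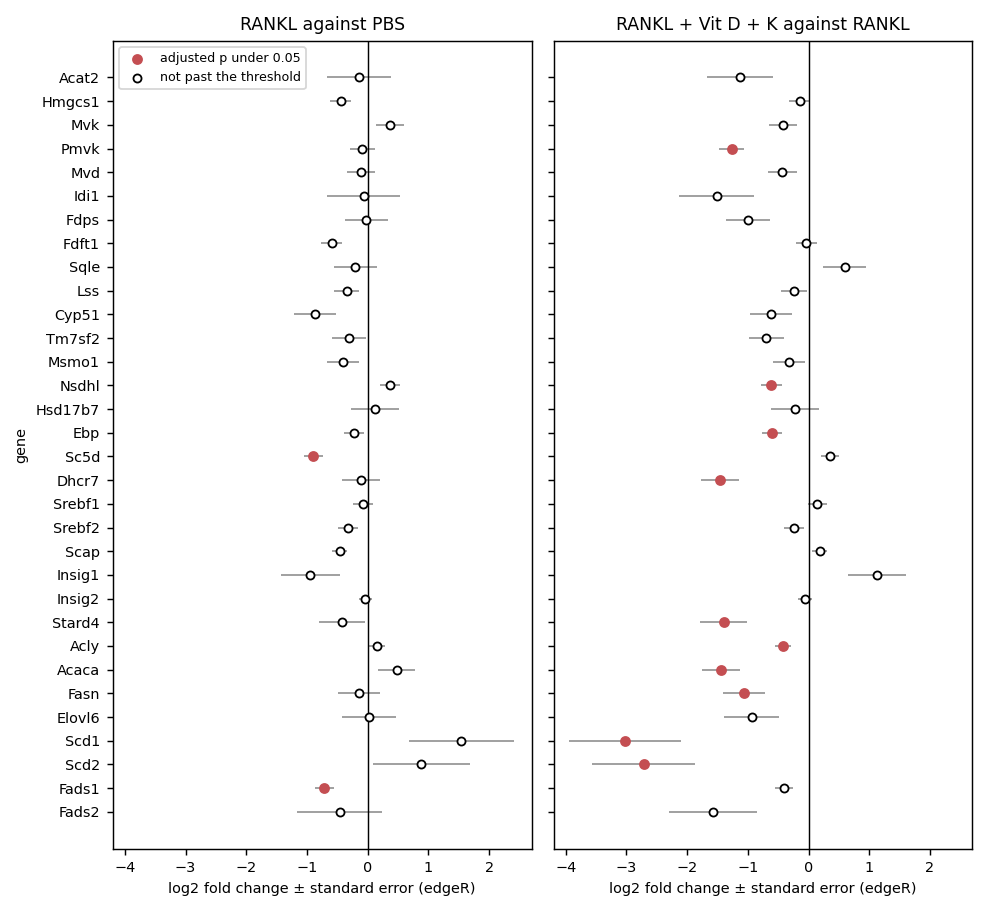
Log2 fold change (horizontal axis) of each member in RANKL against PBS (left) and RANKL + Vit D + K against RANKL (right), with bars of 1 standard error from edgeR and filled symbols for members past an adjusted p of 0.05. The 10 members that fell with the vitamins lie between -3.02 (Scd1) and -0.42 (Acly), and the 2 that fell with RANKL are Sc5d and Fads1.

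Fatty acid synthesis starts in the cytosol with acetyl-CoA. Acly, ATP citrate lyase, makes it from citrate, and its FPKM was 33.0, 40.1 and 30.5 in RANKL replicates 1 to 3 and 19.8, 30.0 and 20.6 in RANKL + Vit D + K. The highest vitamin library lay just under the lowest RANKL library, and Acly fell by 0.42 on the log2 scale (SE 0.130, adjusted p = 0.0355). Acaca, acetyl-CoA carboxylase, makes the malonyl-CoA that feeds chain growth. Its FPKM was 3.17, 3.63 and 3.22 with RANKL and 0.578, 1.93 and 0.933 with the vitamins, where replicate 2 was the highest. The groups did not overlap, and Acaca fell by 1.44 (SE 0.316, adjusted p = 0.00915), to a 2.71-fold lower level. Fasn, fatty acid synthase, builds palmitate from malonyl-CoA. It stood at 6.40, 9.16 and 5.00 FPKM with RANKL and at 1.93, 5.11 and 2.07 with the vitamins. Replicate 2 of the vitamin group lay above RANKL replicate 3, so the groups overlapped. Fasn fell by 1.06 (SE 0.348, adjusted p = 0.0428), a call that 8 of the 9 fits without 1 library did not hold.

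The stearoyl-CoA desaturases Scd1 and Scd2 put the first double bond into saturated fatty acids, and they showed the widest changes of all members. Scd2, the more abundant of the pair per length, stood at 13.4, 39.1 and 8.81 FPKM with RANKL and at 0.868, 6.98 and 0.912 with the vitamins. Every vitamin library was lower than every RANKL library, and replicate 2 was far above the others in both groups. Scd2 fell by 2.72 (SE 0.843, adjusted p = 0.0349). The value was -4.27 without RANKL + Vit D + K replicate 2 and -1.90 without RANKL replicate 2, the latter with an adjusted p of 0.115. Scd1 was the least abundant member per length in the vitamin group, and stood at 1.34, 1.97 and 0.364 FPKM (490, 719 and 139 counts) with RANKL and at 0.255, 0.0968 and 0.0352 (94, 37 and 13 counts) with the vitamins. It fell by 3.02 (SE 0.926, adjusted p = 0.0333), and the value was -4.10 without RANKL + Vit D + K replicate 1. How reads shared by these close paralogs were counted is not stated.

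The members Fads1, Fads2 and Elovl6, which desaturate polyunsaturated fatty acids or lengthen chains, had lower means without a call. Fads1, the delta-5 desaturase, had the highest FPKM of the members in PBS, and it stood at 21.3, 19.2 and 21.1 with RANKL and at 11.3, 19.1 and 12.3 with the vitamins. Replicate 2 of both groups was nearly equal, and the log2 fold change was -0.41 (SE 0.152, adjusted p = 0.0661). Fads2, the delta-6 desaturase, ranged from 0.601 to 4.68 with RANKL and from 0.351 to 1.22 with the vitamins (log2 fold change -1.58, SE 0.725, adjusted p = 0.123). Elovl6, which lengthens palmitate, ranged from 0.893 to 1.66 and from 0.274 to 1.13 (log2 fold change -0.94, SE 0.448, adjusted p = 0.136). Without RANKL + Vit D + K replicate 2, all of these had an adjusted p under 0.05, at 0.00180 for Fads1, 0.0429 for Fads2 and 0.00416 for Elovl6. Their values were then -0.59, -2.28 and -1.63. Without RANKL replicate 2, Fads2 had -0.39 (adjusted p = 0.643).

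Neutrophil markers differed between groups and between replicates. All 9 were in the table, and their summed FPKM was 108 to 261 in PBS, 53.1 to 188 in RANKL and 15.1 to 32.7 in RANKL + Vit D + K, where Camp, Ltf, Mpo, Elane and Retnlg were at 0 in all libraries. Mmp8 made up most of the sum in PBS and in RANKL + Vit D + K, and stood at 110, 132 and 96.8 in PBS, at 50.7, 39.2 and 41.8 in RANKL and at 14.3, 31.0 and 25.5 with the vitamins. S100a9 stood at 32.7, 56.5 and 3.98 in PBS replicates 1 to 3 and at 36.0, 66.9 and 3.66 in RANKL, where it was highest in replicate 2 and Mmp8 was lowest there. Replicate 3 was also lowest for 22 of 32 members in PBS and for 19 of 32 in RANKL, against 38.94% and 38.87% of expressed genes. The part of neutrophil RNA in these values was not tested. Of 5 adipocyte markers, the 2 in the table were at 0 in all PBS and RANKL libraries and at most at 0.0365 FPKM with the vitamins.

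**Figure D3:**
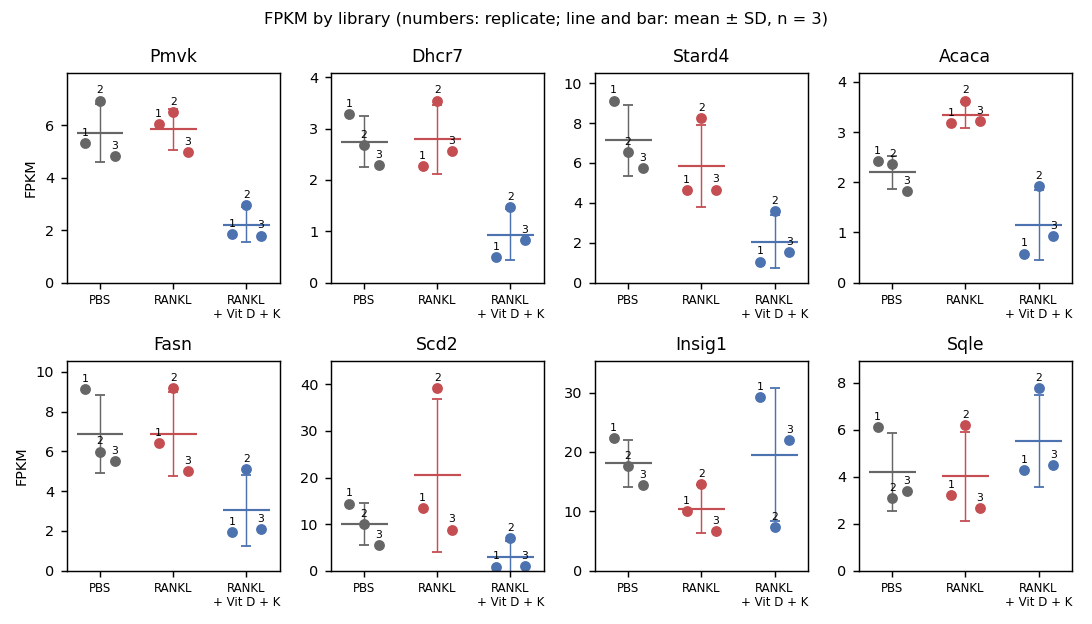
FPKM of 8 members in each library, with the replicate number beside each point and the mean and SD of 3 libraries as a line and bar. Pmvk, Dhcr7, Stard4, Acaca and Scd2 have every vitamin library below every RANKL library, Fasn overlaps through replicate 2, and Insig1 and Sqle have higher vitamin means with overlap.

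In the mevalonate steps, Pmvk, phosphomevalonate kinase, was the member that fell. Its FPKM was 6.06, 6.51 and 4.98 with RANKL and 1.87, 2.97 and 1.79 with the vitamins. The groups were well apart, and Pmvk fell by 1.27 (SE 0.211, adjusted p = 0.00308), to a 2.41-fold lower level. The other 6 genes of these steps had negative log2 fold changes without a call. Idi1, isopentenyl diphosphate isomerase, had -1.52 (SE 0.610, adjusted p = 0.0841), and ranged from 4.59 to 9.78 FPKM with RANKL and from 0.747 to 4.63 with the vitamins. Fdps had -0.99 (SE 0.360, adjusted p = 0.0601), with a range of 4.56 to 9.90 against 2.01 to 5.16. Acat2, which joins acetyl-CoA units and has a close paralog, had -1.13 (SE 0.539, adjusted p = 0.136). In these 3 genes the overlap came from RANKL + Vit D + K replicate 2, and without it they had -2.71 (adjusted p = 0.000573) for Idi1, -1.46 (adjusted p = 0.00419) for Fdps and -2.17 (adjusted p = 0.000673) for Acat2. Hmgcs1, the synthase that makes HMG-CoA, had -0.15 (SE 0.178, adjusted p = 0.563), and Mvk and Mvd, mevalonate kinase and mevalonate diphosphate decarboxylase, both had -0.43.

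Between squalene and lanosterol, no gene was called. Fdft1, squalene synthase, had a log2 fold change of -0.04 (SE 0.176), and Lss, lanosterol synthase, had -0.24 (SE 0.209). Sqle, squalene epoxidase, had 0.60 (SE 0.352, adjusted p = 0.221), with 2.67 to 6.20 FPKM with RANKL and 4.27 to 7.77 with the vitamins. Fdft1 overlaps Ctsb on the opposite strand, and whether counting used the strand is not stated.

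The late steps from lanosterol to cholesterol held 3 genes that fell. Dhcr7, the reductase of 7-dehydrocholesterol, stood at 2.27, 3.54 and 2.55 FPKM with RANKL and at 0.503, 1.47 and 0.828 with the vitamins. The groups did not overlap, and Dhcr7 fell by 1.46 (SE 0.314, adjusted p = 0.00842), to a 2.75-fold lower level. Ebp, the sterol isomerase, stood at 13.1, 14.3 and 12.4 with RANKL and at 6.36, 10.5 and 7.14 with the vitamins, and fell by 0.60 (SE 0.161, adjusted p = 0.0207). Nsdhl, a dehydrogenase that helps to remove the methyl groups of lanosterol, stood at 6.55, 7.63 and 5.72 with RANKL and at 3.62, 4.11 and 3.97 with the vitamins. Its 3 vitamin libraries lay close together, and Nsdhl fell by 0.61 (SE 0.169, adjusted p = 0.0223). Sc5d, which makes 7-dehydrocholesterol, was on the other side of 0: it stood at 4.38, 4.39 and 4.14 with RANKL and at 4.90, 4.70 and 5.22 with the vitamins. The log2 fold change of Sc5d was 0.35 (SE 0.154, adjusted p = 0.107), without overlap of the groups. Cyp51, Tm7sf2, Msmo1 and Hsd17b7, which act on lanosterol and its products, had log2 fold changes from -0.69 to -0.23 with overlapping groups and no call. Without RANKL + Vit D + K replicate 2, Cyp51 had -1.10 (adjusted p = 0.00969), Tm7sf2 -0.90 (adjusted p = 0.0310) and Msmo1 -0.65 (adjusted p = 0.0332), each past the threshold, and Hsd17b7 had -0.81 (adjusted p = 0.0533), against -0.23 with all libraries. Tm7sf2 was also past it without RANKL replicate 2 (-0.93, adjusted p = 0.0244). Cyp51 overlaps Akap9 on the opposite strand, and Tm7sf2 overlaps Vps51.

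Among the regulators, none was called. Srebf1 stood at 9.67, 11.7 and 7.43 FPKM with RANKL and at 9.53, 10.3 and 8.76 with the vitamins (log2 fold change 0.14, SE 0.158, adjusted p = 0.515). Srebf2, the SREBP with the stronger tie to cholesterol synthesis, stood at 16.5, 21.6 and 14.6 and at 11.7, 16.9 and 11.8 (-0.24, SE 0.169, adjusted p = 0.305). The groups overlapped for both. Scap stood at 6.07, 5.03 and 5.99 with RANKL and at 5.43, 6.62 and 5.57 with the vitamins (0.18, SE 0.121, adjusted p = 0.275). Insig2 stood at 8.53, 9.61 and 9.04 and at 7.39, 8.07 and 8.07, a narrow spread in both groups, with -0.06 (SE 0.109, adjusted p = 0.714). These are transcript levels, and the cleavage of SREBP proteins was not measured.

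Insig1, which retains SCAP in the endoplasmic reticulum, had vitamin replicates on both sides of the RANKL mean. Its FPKM was 10.0, 14.5 and 6.59 with RANKL and 29.3, 7.39 and 22.0 with the vitamins. Vitamin replicates 1 and 3 were above every RANKL library, and replicate 2 was below RANKL replicates 1 and 2. The log2 fold change was 1.13 (SE 0.480, adjusted p = 0.0997), and 1.54 with an adjusted p of 0.00237 without RANKL + Vit D + K replicate 2. Stard4, which carries cholesterol between membranes, was the transport gene of the set. It stood at 4.63, 8.23 and 4.67 with RANKL and at 1.05, 3.57 and 1.53 with the vitamins. Stard4 fell by 1.40 (SE 0.385, adjusted p = 0.0223), to a 2.63-fold lower level, without overlap.

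**Figure D4:**
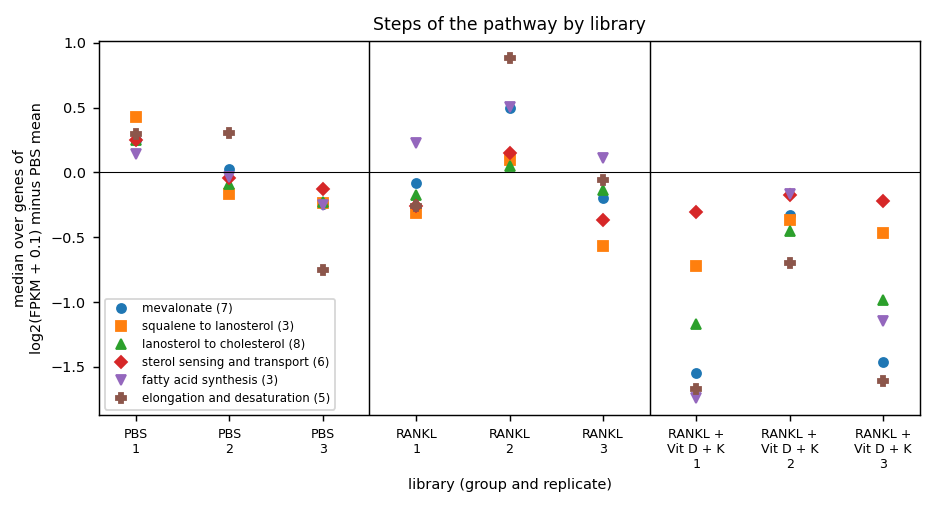
Median over the genes of each step of log2(FPKM + 0.1) minus the PBS mean, by library (number of genes in the legend). In RANKL + Vit D + K replicates 1 and 3 the medians of mevalonate, fatty acid synthesis, and elongation and desaturation lie between -1.74 and -1.14, and in replicate 2 between -0.70 and -0.17.

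RANKL was compared with PBS to ask how the pathway differed between macrophages and cells on the way to osteoclasts. Of the 32 members, 2 fell and 0 rose (edgeR, adjusted p under 0.05), where 1.26% of all genes fell and 2.35% rose, 3.61% in all. At an unadjusted p under 0.05 there were 6 lower and 0 higher members, where 8.65% of all genes were lower and 9.96% higher. DESeq2 called 4 lower and 0 higher members, and 4.19% of all genes lower and 6.71% higher. The median log2 fold change was -0.14 over the members and -0.04 over all genes. Sc5d stood at 8.65, 6.28 and 7.13 FPKM in PBS and at 4.38, 4.39 and 4.14 with RANKL. All RANKL libraries were lower, and Sc5d fell by 0.90 (SE 0.155, adjusted p = 0.0181). Fads1 stood at 32.6, 29.8 and 30.6 in PBS and at 21.3, 19.2 and 21.1 with RANKL, without overlap, and fell by 0.72 (SE 0.152, adjusted p = 0.0388). With the replicate number as a block, Fads1 had an adjusted p of 0.0602 and 1 member was called, Sc5d.

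The other members gave no call with RANKL. FPKM was apart between the groups for 4 lower members, Cyp51 and Scap besides the former pair, and for 3 higher ones, Mvk, Acly and Acaca, where 12.9% and 22.4% of all genes were so. Scap had -0.46 (SE 0.121, adjusted p = 0.0718) and stood at 7.24, 7.27 and 7.21 FPKM in PBS. Insig1 stood at 22.3, 17.7 and 14.4 in PBS, which overlapped the RANKL group (-0.94, SE 0.478, adjusted p = 0.339). Srebf1 stood at 10.7, 8.69 and 8.27, Srebf2 at 24.0, 17.6 and 18.4 and Insig2 at 7.85, 9.02 and 8.74 in PBS, each overlapping the RANKL group. Scd1 had 1.54 (SE 0.869, adjusted p = 0.394) and Scd2 had 0.88 (SE 0.796, adjusted p = 0.622), both with wide standard errors. Without RANKL replicate 2, Scd2 had 0.07 and Fads2 had -1.65, against -0.46 with all libraries. Fits without PBS replicate 1 or 3 or without any of the RANKL libraries called 0 members lower, those without PBS replicate 2 or RANKL + Vit D + K replicate 3 called 1, and that without RANKL + Vit D + K replicate 2 called 4. With replicate 2 left out of both groups with RANKL, 7 were lower. The share of all genes that fell was 5.23% and 3.08% in the latter pair of fits, and 0.169% to 1.17% without any other library.

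Against PBS, RANKL + Vit D + K had 15 lower and 0 higher members, 46.875% of the set, where 21% of all genes fell and 19.8% rose, 40.8% in all (edgeR, adjusted p under 0.05). This comparison shares its libraries with both others. At an unadjusted p under 0.05 there were 21 lower and 0 higher members, where 26.1% and 24% of all genes were so. DESeq2 and limma on log2(FPKM + 0.1) called 0 members higher, and 23.0% and 19.2% of all genes. The median log2 fold change was -0.77, and it was negative for 29 of 32 members. The 15 were Hmgcs1, Pmvk and Fdps of the mevalonate steps, Fdft1 and Lss, the late enzymes Cyp51, Tm7sf2, Ebp, Sc5d and Dhcr7, the regulator Srebf2, the carrier Stard4, and Acaca, Fasn and Fads1 of fatty acid synthesis. FPKM did not overlap for 17 lower and 0 higher members, against 27.7% and 24.8% of all genes.

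Stard4 fell the most of those 15, from 9.13, 6.54 and 5.74 FPKM in PBS, by 1.83 (SE 0.389, adjusted p = 0.00604). Dhcr7, at 3.28, 2.67 and 2.29 in PBS, fell by 1.57 (SE 0.315, adjusted p = 0.00459), and Cyp51, lanosterol demethylase, fell by 1.49 (SE 0.354, adjusted p = 0.00986). Pmvk, at 5.34, 6.95 and 4.84 in PBS, fell by 1.36 (SE 0.211, adjusted p = 0.00145). These 4 genes had no overlap between the groups. Fads1 fell by 1.12 (SE 0.154, adjusted p = 0.000854), the smallest adjusted p of the set, after a lower level in RANKL as well. Srebf2 fell by 0.56 (SE 0.170, adjusted p = 0.0265). Insig1 had 0.18 (SE 0.474, adjusted p = 0.789) and its PBS libraries lay within the range of the vitamin libraries. Scd1 and Scd2 had -1.48 and -1.83 without a call, and their PBS means lay below their RANKL means. Scd2 had -3.38 (adjusted p = 0.00300) without RANKL + Vit D + K replicate 2, and Scd1 had -2.49 (adjusted p = 0.0813) without RANKL + Vit D + K replicate 1.

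Pmvk, Ebp, Dhcr7, Stard4 and Fads1 were called against PBS in all 9 fits that left out 1 library. The count was 5 without PBS replicate 1 or RANKL + Vit D + K replicate 3, 8 without PBS replicate 3 or RANKL + Vit D + K replicate 1, 10 without PBS replicate 2, and 21 without RANKL + Vit D + K replicate 2. It was 12 to 15 without a RANKL library. Over all genes, the share that fell was 12.9% and 13.2% in the fits with 5 members, 13.5% and 14.5% in those with 8, 14.5% in that with 10, 26.5% in that with 21, and 17.4% to 19.1% without a RANKL library. Without RANKL + Vit D + K replicate 2, Acat2 (-2.31), Idi1 (-2.78), Elovl6 (-1.61) and Fads2 (-2.75) passed the threshold against PBS, where they had -1.27, -1.58, -0.91 and -2.04 with all libraries and no call.

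Other genes of lipid synthesis and handling gave a mixed picture. The list held 43 genes, all tested, and with the vitamins against RANKL 14 rose and 7 fell, 32.6% and 16.3% of it against 16.4% and 17.2% of all genes, with a median log2 fold change of 0.09. Acsl3 and Acsl4, which activate long-chain fatty acids with coenzyme A, rose by 1.68 (SE 0.322, adjusted p = 0.00533) and 1.07 (SE 0.162, adjusted p = 0.00204). Hsd17b12, an enzyme of fatty acid elongation, rose by 0.85 (SE 0.168, adjusted p = 0.00604), and Soat1, which esterifies cholesterol, by 0.86 (SE 0.231, adjusted p = 0.0197). Dgat2 and Lpin1, which act in triglyceride synthesis, fell by 2.19 (SE 0.589, adjusted p = 0.0204) and 1.10 (SE 0.187, adjusted p = 0.00333). Dgat2 was low in both groups, with a mean FPKM of 0.273 in RANKL and 0.0518 in RANKL + Vit D + K. The calls of Acsl3, Acsl4, Hsd17b12 and Lpin1 held in all 9 fits without 1 library, and those of Soat1 and Dgat2 were lost in 4, without replicate 1 or 2 of RANKL or replicate 1 or 3 of RANKL + Vit D + K.

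Some further genes of the list were picked after their values were seen, for their place beside the members. Mbtps1 and Mbtps2, the proteases that cleave SREBP, rose by 0.49 (SE 0.126, adjusted p = 0.0171) and 0.83 (SE 0.127, adjusted p = 0.00215). Slc25a1, the carrier that exports citrate for Acly, fell by 0.67 (SE 0.150, adjusted p = 0.00971). Of the other genes listed for cytosolic acetyl-CoA and NADPH, Me1, malic enzyme, rose by 0.72 (SE 0.195, adjusted p = 0.0212), and Acss2 (0.09), Mid1ip1 (0.29) and Acacb (-1.17) were not called. Of the elongation genes of the list, Elovl5 and Hacd2 rose beside Hsd17b12, by 0.82 (SE 0.132, adjusted p = 0.00275) and 0.58 (SE 0.138, adjusted p = 0.0124), and none fell. The calls of Mbtps2, Slc25a1 and Elovl5 held in all 9 fits without 1 library. Those of Mbtps1 and Me1 were lost in 4, without replicate 1 or 3 of RANKL or of RANKL + Vit D + K, and that of Hacd2 in 2, without RANKL replicate 1 or RANKL + Vit D + K replicate 3.

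With RANKL against PBS, the list had 2 higher genes and 1 lower, 4.65% and 2.33% of it against 2.35% and 1.26% of all genes. Acsl1 rose by 1.41 (SE 0.125, adjusted p = 0.00114), Acat1, the mitochondrial thiolase, rose by 1.18 (SE 0.198, adjusted p = 0.0163), and Lipa, lysosomal acid lipase, fell by 0.55 (SE 0.106, adjusted p = 0.0267). Acsl1 held in all 9 fits without 1 library, Acat1 was lost in 5 and Lipa in 7. Against PBS, RANKL + Vit D + K had 13 higher and 9 lower genes of the list, 30.2% and 20.9% of it against 19.8% and 21% of all genes. The widest changes were those of Acsl3 (1.77, SE 0.323, adjusted p = 0.00300), Elovl7 (1.39, SE 0.406, adjusted p = 0.0235), Agpat2 (-1.08, SE 0.162, adjusted p = 0.00127), Tmem97 (1.03, SE 0.296, adjusted p = 0.0217), Slc25a1 (-1.01, SE 0.151, adjusted p = 0.00124) and Lpin1 (-0.97, SE 0.186, adjusted p = 0.00378). Elovl7 lost its call without PBS replicate 1 or RANKL + Vit D + K replicate 3, and Tmem97 without PBS replicate 1 or 3 or RANKL + Vit D + K replicate 1, while the other 4 held in all 9 fits without 1 library. Elovl7 was low in both groups, with a mean FPKM of 0.184 in PBS and 0.487 in RANKL + Vit D + K. Elovl7 elongates fatty acids, Agpat2 makes phosphatidic acid, and Tmem97 is a sterol-binding protein of the endoplasmic reticulum.

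Srebf1 and Scd1 are also known targets of the liver X receptors, which sense oxysterols and drive cholesterol export. Of the 6 other genes on that list, 4 fell with the vitamins against RANKL, where 17.2% of all genes did, and 2, Mylip (0.57, adjusted p = 0.110) and Nr1h2 (0.07, adjusted p = 0.766), were not called. Abca1 and Abcg1, which export cholesterol, fell by 2.69 (SE 0.190, adjusted p = 0.000158) and 1.35 (SE 0.176, adjusted p = 0.00118), and Nr1h3, which encodes the receptor LXR alpha, fell by 1.26 (SE 0.221, adjusted p = 0.00376). Nr1h3 had risen with RANKL against PBS by 1.27 (SE 0.221, adjusted p = 0.0186; the call was lost in 5 of 9 fits without 1 library, replicates 1 to 3 of PBS and 1 and 2 of RANKL), and with the vitamins against PBS it had 0.01 (SE 0.218, adjusted p = 0.960). Lpcat3, an enzyme of phospholipid remodelling, fell by 1.17 (SE 0.308, adjusted p = 0.0186), a call lost without RANKL replicate 1 or RANKL + Vit D + K replicate 1 or 3.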

How the data were processed

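RNA was selected for poly(A), sequenced as paired ends, and the authors deposited 1 table for the 9 libraries, with whole-number counts per gene, not normalized, and FPKM, which the authors scaled to transcript length and library size. The submitters' processing notes name cutadapt 1.9, HISAT2 2.0.4, StringTie 1.3.4d and edgeR; they list the build hg38, although the gene IDs are those of mouse. The table's starts and ends were the same as GENCODE M21 (GRCm38) for 25633 of 28294 IDs and 27 of the 32 members. How reads shared between genes were counted, and whether strand was used, is not given in the sources used here. The methods of the study speak of pooled RNA and give vitamin K at 40 μM, where the labels give 20 μM.

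Groups and replicate numbers came from the labels. Counts were tested in R 4.3.3 with edgeR 4.0.16 (filterByExpr, TMM, quasi-likelihood test, 1 model of all 9 libraries, Benjamini-Hochberg, threshold 0.05). A standard error is the log2 fold change divided by the square root of F. Levels are the deposited FPKM. Deviations of same-numbered libraries from their group means had correlations of 0.122, 0.219 and 0.155 between RANKL and PBS. A fit with the replicate number as a block is given there. Alternatives were that block, DESeq2 1.42.0, its size factors in edgeR, other filters, 2 groups only, limma 3.58.1 on log2(FPKM + 0.1) or log2(FPKM + 1), limma-voom with quality weights and each replicate left out. Leaving out both replicates 2 was chosen after seeing the data. Tests were checked on simulated counts.

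Members and lists were chosen with earlier results of these data known. Values in each library are given for the regulators and for members called in RANKL + Vit D + K against RANKL or in RANKL against PBS. From the list of 43 other lipid genes, up to 6 called genes per comparison with the largest changes are named. For RANKL + Vit D + K against RANKL, further genes of the list were picked after their values were seen. Marker lists for B cells, erythroid cells and fibroblasts summed to under 1 FPKM in every library, and none of 3 T cell markers was in the table analysed here.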

Additional observations from a re-analysis of the deposited data

How the results depend on the processing

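Of the members' log2 fold changes under all alternatives, 1581 kept their side of the threshold, 116 gained a call, 127 lost one and 0 reversed while called. Lower members in RANKL + Vit D + K against RANKL numbered 10 and became 6 without the filter on low counts, 6 with only the 2 groups, 19 with quality weights, 16 without both replicates 2, and 3 to 19 with 1 replicate left out; higher members, 0, became 1 with DESeq2, 3 with quality weights, 1 without both replicates 2 and 0 to 2 with 1 replicate left out. Lower members in RANKL against PBS numbered 2 and became 1 with the replicate block, 4 with DESeq2, 1 without the filter, 1 with limma at either pseudocount, 10 with quality weights, 7 without both replicates 2 and 0 to 4 with 1 replicate left out; higher members, 0, became 1 with only the 2 groups and 1 with quality weights, and stayed 0 with any replicate left out. Against PBS, 15 lower members of RANKL + Vit D + K became 25 with quality weights and 5 to 21 with 1 replicate left out. The calls over all genes moved as well: in RANKL + Vit D + K against RANKL, 17.2% of all genes fell, and 9.29% did without the filter, 11.9% with only the 2 groups, 33.6% with quality weights, 27.3% without both replicates 2 and 9.16% to 25.2% with 1 replicate left out. In the same comparison 16.4% of all genes rose. That share was 19.0% with DESeq2, 29.3% with quality weights and 21.8% without both replicates 2. It was 8.91% to 21.2% with 1 replicate left out. In RANKL against PBS, 1.26% fell and 2.35% rose, and with quality weights 8.80% and 8.88% did. With only the 2 groups, 6.32% rose there. Against PBS, 21% of all genes fell with the vitamins, and 33.7% did with quality weights. The cause of these moves was not tested.

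In the list of 43, RANKL against PBS gave 2 higher genes (1 to 2 with 1 replicate left out) and 1 lower, which became 2 with the replicate block, 5 with DESeq2, 4 with only the 2 groups, 10 with quality weights, 4 without both replicates 2 and 0 to 7 with 1 replicate left out. Against RANKL, 14 higher genes became 9 with only the 2 groups and 8 to 15 with 1 replicate left out, and 7 lower became 4 with only the 2 groups, 11 with limma at either pseudocount, 17 with quality weights, 17 without both replicates 2 and 3 to 15 with 1 replicate left out. Against PBS, 13 higher became 11 to 14 and 9 lower became 5 to 13 with 1 replicate left out, and the lower became 18 with quality weights and 16 without both replicates 2.

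For the vitamin libraries, correlations of same-numbered libraries were 0.00625, 0.0428 and 0.107 with RANKL, and -0.0216, 0.0217 and 0.0237 with PBS. Whether replicate numbers pair these libraries was not tested. The replicate block gave 14 lower members against RANKL, where 17.2% of all genes fell. With limma on log2(FPKM + 0.1), the median of all genes against RANKL was -0.16 instead of -0.04 and 35.6% instead of 48.8% of calls were higher; the members' median minus that of all genes was -0.51, against -0.47 in edgeR. With 3 libraries per group, small changes can be missed.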
